A study of Arabidopsis thaliana with 18 samples.

Results

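The transcripts described here were already high 30 min after a spray and still above their starting level 1 h after a spray of water. They were chosen on the scale log2(intensity + 16) among 22746 probe sets other than controls. A probe set was taken when its value 30 min after GA4 exceeded that at 0 h by 1 or more in both genotypes, and when its value 1 h after water exceeded that at 0 h by 0.5 or more as the mean of the genotypes. Of the 22746 probe sets, 175 met the 30 min threshold, which is 0.769%, and 99 of these also met the 1 h threshold. The expansin-like gene EXLA1, XTH18, EXO, ATPMEPCRB, CML38 and STZ were left out by name, which left 93 members. Both contrasts were used in the choice, so their values are given as a description with no test. Of the 93 members, 43 name 1 gene, 4 name several and 46 are unlisted in the platform table used here, so these last are unnamed and could read a gene that the rule leaves out.

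The arrays came from whole Arabidopsis thaliana plants aged 14 days, grown on MS/2 medium with sucrose in a growth room, of the line etr1-1 or the wild type Col-0. etr1-1 carries a dominant allele of an ethylene receptor and does not respond to ethylene. Plants were sprayed with GA4, a bioactive gibberellin dissolved in water, or with water alone. Each genotype had 3 arrays 1 h after GA4 and 3 arrays 1 h after water, and a single array at each other point, namely 0 h with water, and 30 min and 3 h after GA4, which makes 10 groups and 18 arrays. Array titles carry the code DV001 or DV002, whose meaning the labels do not give. Most titles of DV001 also end in a mark of repeat, likewise unexplained. It is missing for Col-0 3 h after GA4 and for etr1-1 30 min after GA4 and 1 h after water. In those pairs of DV001 arrays, genotype and this mark cannot be told apart. DV001 holds 1 array of each group, 10 in all. DV002 holds the other arrays of the groups at 1 h, 8 in all, with replicate numbers 1 and 2. In DV001 the arrays at 1 h carry replicate number 3 and those at other times number 1. Within DV001, time and replicate number therefore cannot be told apart where 1 h is compared with another time. Whether replicates were different plants is not said by the labels, and p-values rest on a spread between arrays that may be technical. No group was sampled after water at 30 min, so the effects of GA4, of water and of handling on the 30 min values cannot be told apart. In whole plants, fewer cells of a type and less RNA per cell cannot be told apart either.

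Plants answer touch, rain, wounding and microbial molecules within minutes with a burst of new transcripts, most of which is over within hours. Calcium influx at the plasma membrane is an early step, and calcium sensors, protein kinases, transcriptional regulators, ubiquitin ligases and proteins that remodel the cell wall are typical products of the early transcripts. Many of these mRNAs are short-lived, so that their level can fall again soon after synthesis stops. Ethylene and gibberellin both act on growth, and gibberellin acts through receptors that lead to the destruction of DELLA repressors.

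At 30 min the members stood at nearly the same median level in etr1-1 and in Col-0, on the arrays that chose them. The rule took only probe sets raised in both genotypes there, so this likeness is partly fixed by the choice. The median difference of the 93 members from the 0 h array was 1.65 in etr1-1 and 1.64 in Col-0 on the log2 scale, and the median intensity of the members was 269.5 units in etr1-1 and 269.3 units in Col-0, with 58.3 and 59.0 units on the 0 h arrays of etr1-1 and Col-0. In DV001 the median difference from 0 h at 1 h was 0.88 after GA4 and 0.73 after water in etr1-1, and 0.99 after GA4 and 0.89 after water in Col-0. By 3 h after GA4 it was 0.12 in etr1-1 and 0.28 in Col-0. The median of all probe sets lay between -0.04 and 0.03 on each of these arrays of DV001. At 3 h, 7 of the 93 members were still 0.5 or more above 0 h as the mean of the genotypes, with 1.70% of all probe sets meeting that.

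**Figure D1:**
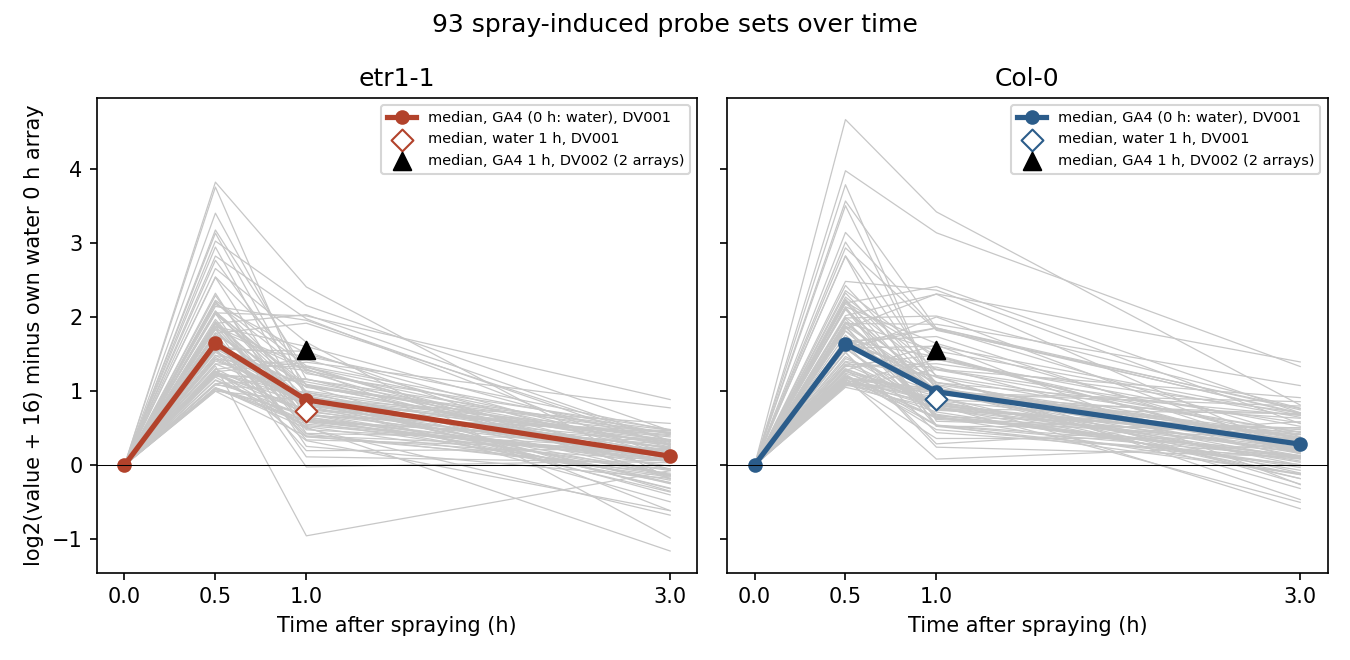
Difference of log2(intensity + 16) from the water 0 h array of the same genotype against time after spraying (h), for etr1-1 (left) and Col-0 (right). Grey lines are the 93 members in the DV001 series (0 h after water, then 30 min, 1 h and 3 h after GA4), the thick line is their median, the open diamond the median 1 h after water in DV001 and the black triangle the median of the 2 arrays of DV002 at 1 h after GA4. The median peaks at 30 min at 1.65 in etr1-1 and 1.64 in Col-0 and lies at 0.12 and 0.28 at 3 h, while the DV002 median at 1 h lies at 1.56 in etr1-1 and 1.55 in Col-0.

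The thresholds cut through a continuous range. The named members just inside the 30 min threshold were CSLC04, a glucan synthase that makes the backbone of the wall polymer xyloglucan, RALFL22, which encodes a small secreted peptide of the RALF family that signals through receptor kinases, and AT5G35735. Their lower difference of the genotypes was 1.02, 1.03 and 1.05 in that order. Just outside lay AT1G70985 at 0.99, AT3G44630 at 0.98 and AT1G76600 at 0.94. At the 1 h threshold EXLA3, an expansin-like gene, AT2G39650 and RALFL22 lay just inside at 0.51 each, and TET8 at 0.49, AT3G19680 at 0.49 and AT5G39670 at 0.48 lay just outside.

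The named members that were highest at 30 min against 0 h were AT4G27280, AT4G29780, AT2G27080, AT3G04640, AT1G72900 and AT3G10930. All values that follow are deposited intensities of single arrays. A DV001 series starts with water at 0 h and goes on with 30 min, 1 h and 3 h after GA4, and a pair from DV002 as replicate 1 then replicate 2.

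AT4G27280 encodes a small EF-hand protein that binds calcium. The series from DV001 was 80.4, 1291, 169.7 and 57.0 units in etr1-1 and 68.8, 1159.7, 150.5 and 87.3 units in Col-0. Water at 1 h in DV001 gave 136 units in etr1-1 and 132 units in Col-0. In DV002 at 1 h the pairs were 285 and 450.3 units after GA4 and 165 and 455 units after water in etr1-1, and 208 and 421 units after GA4 and 174 and 344 units after water in Col-0. The 30 min arrays therefore stood far above all arrays at 1 h, and within DV002 replicate 2 was above replicate 1 in each pair.

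AT4G29780 had a DV001 series of 32.5, 359, 64.2 and 39.0 units in etr1-1 and 28.7, 301, 51.5 and 45.3 units in Col-0, and 52.9 units in etr1-1 and 62.4 units in Col-0 after water at 1 h in DV001. Its DV002 pairs at 1 h were 92.9 and 164 units after GA4 and 86.2 and 149.9 units after water in etr1-1, and 77.7 and 156 units after GA4 and 57.1 and 128 units after water in Col-0. Like AT4G27280, it peaked at 30 min in both genotypes, and no array at 1 h reached the 30 min level.

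AT2G27080 encodes a protein of the late embryogenesis abundant, hydroxyproline-rich family. In DV001 it read 86.1, 581, 236 and 50.7 units in etr1-1 and 42.7, 504, 194 and 79.8 units in Col-0, with 167 units in etr1-1 and 161.5 units in Col-0 after water at 1 h. Its DV002 values were 326 and 578 units after GA4 and 334 and 628 units after water in etr1-1, and 246 and 577 units after GA4 and 296 and 470.5 units after water in Col-0. Here replicate 2 of DV002 at 1 h came close to the 30 min level or passed it, which the DV001 arrays at 1 h did not.

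For AT3G04640 the DV001 series was 80.3, 456, 131 and 101 units in etr1-1 and 64.7, 363, 100.2 and 98.6 units in Col-0. Water at 1 h gave 179 units in etr1-1 and 109.8 units in Col-0 in DV001. The DV002 pairs were 267 and 506 units after GA4 and 209 and 374 units after water in etr1-1, and 184 and 395 units after GA4 and 255 and 288.5 units after water in Col-0. All arrays of DV002 lay above all DV001 arrays at 1 h.

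AT1G72900 encodes a protein with a TIR domain, the signalling module of a class of plant immune receptors. It read 54.2, 243, 85.8 and 60 units in etr1-1 and 42.7, 301, 111 and 77.6 units in Col-0 in the DV001 series and 104 units in etr1-1 and 114.5 units in Col-0 after water at 1 h in DV001. On the DV002 arrays it read 149 and 137 units after GA4 and 148 and 141 units after water in etr1-1, and 262 and 173.5 units after GA4 and 246 and 120.5 units after water in Col-0. In contrast to the other members of this group, its replicate 2 was below its replicate 1 in each of the 4 pairs.

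AT3G10930 was the dimmest of the 6, with a DV001 series of 39.3, 214, 50.0 and 32.9 units in etr1-1 and 20.0, 155, 50.5 and 42.1 units in Col-0. Water at 1 h gave 57.5 units in etr1-1 and 64.2 units in Col-0 in DV001. Its DV002 pairs were 48.3 and 87.3 units after GA4 and 41.9 and 105 units after water in etr1-1, and 74.2 and 114 units after GA4 and 72.5 and 77.4 units after water in Col-0. The DV001 and DV002 arrays at 1 h overlapped for this gene.

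The named members that were highest 1 h after water in DV001 formed a different set, AT1G19380, AT2G24600, AT1G69840, AT3G59350, AT5G19240 and AT5G28630. They differed in shape, in that most of their arrays at 1 h lay near or above their 30 min arrays. The first set was picked on the 30 min values and this set on those 1 h after water. Their difference in shape is therefore partly built into the picking.

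AT1G19380 had a DV001 series of 163, 793, 494 and 185 units in etr1-1 and 117, 514, 523 and 211.5 units in Col-0, and 644 units in etr1-1 and 521 units in Col-0 after water at 1 h in DV001. In DV002 the pairs were 935 and 1132 units after GA4 and 841 and 1105 units after water in etr1-1, and 691 and 821 units after GA4 and 727 and 1040.2 units after water in Col-0. In Col-0 all 6 arrays at 1 h were at or above the 30 min array.

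AT2G24600 encodes an ankyrin repeat protein. Over time in DV001 it read 49.9, 179.8, 176 and 41.9 units in etr1-1 and 35.4, 193, 239 and 42.0 units in Col-0, and water at 1 h gave 164 units in etr1-1 and 261 units in Col-0. The DV002 pairs were 292 and 315 units after GA4 and 289 and 369 units after water in etr1-1, and 240.3 and 351 units after GA4 and 314 and 335 units after water in Col-0. At 3 h both genotypes were close to their 0 h arrays.

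AT1G69840 encodes a membrane-associated protein of the SPFH (band 7) family. It read 135, 504, 555 and 173 units in etr1-1 and 160.4, 493, 692 and 183 units in Col-0 in the DV001 series, with 447 units in etr1-1 and 638 units in Col-0 after water at 1 h. Within DV002 it gave 969 and 837 units after GA4 and 728 and 988 units after water in etr1-1, and 878 and 918 units after GA4 and 978.5 and 993 units after water in Col-0. All DV002 arrays exceeded the 30 min arrays.

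AT3G59350 encodes a protein kinase. It had a DV001 series of 99.0, 260.3, 286 and 181 units in etr1-1 and 65.5, 277, 390.1 and 199 units in Col-0, and 251 units in etr1-1 and 319 units in Col-0 after water at 1 h. Its DV002 pairs were 598 and 702 units after GA4 and 505 and 661 units after water in etr1-1, and 486 and 711 units after GA4 and 659 and 817 units after water in Col-0. It kept the highest level at 3 h relative to 0 h among the members as the mean of the genotypes, with a difference of 0.78 in etr1-1 and 1.40 in Col-0.

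AT5G19240 had a DV001 series of 203, 595, 534 and 193 units in etr1-1 and 152, 522, 545 and 172 units in Col-0, and 495 units in etr1-1 and 541 units in Col-0 after water at 1 h. The DV002 pairs were 548 and 732 units after GA4 and 491 and 839.6 units after water in etr1-1, and 444 and 591.5 units after GA4 and 536 and 618 units after water in Col-0. The 3 h arrays were back near the 0 h arrays.

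AT5G28630 read 65.5, 204, 182 and 80.7 units in etr1-1 and 51.4, 238, 237 and 126 units in Col-0 in the DV001 series and 171 units in etr1-1 and 206 units in Col-0 after water at 1 h. DV002 gave it 292 and 269 units after GA4 and 287 and 347 units after water in etr1-1, and 281 and 301.5 units after GA4 and 369 and 232 units after water in Col-0. At 3 h it was 0.25 above 0 h in etr1-1 and 1.08 above in Col-0 on the log2 scale.

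**Figure D2:**
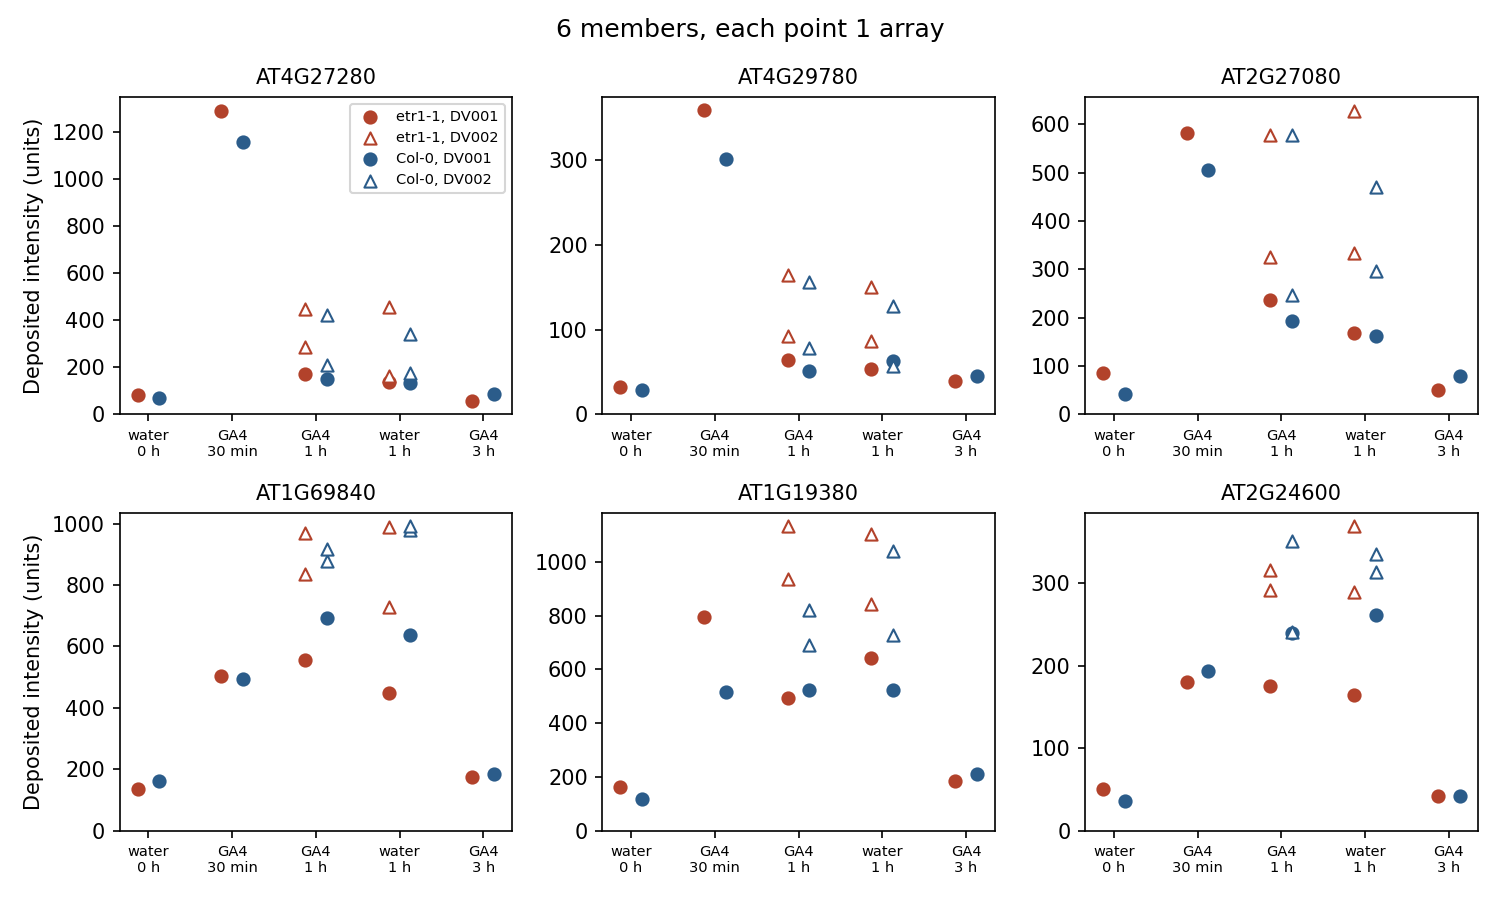
Deposited intensity (units) of 6 members, each point 1 array, by condition in the order water 0 h, GA4 30 min, GA4 1 h, water 1 h and GA4 3 h, with etr1-1 (red) left of Col-0 (blue). Filled circles are DV001 and open triangles DV002. AT4G27280, AT4G29780 and AT2G27080 are among the members highest at 30 min, and AT4G27280 reads 1291 units in etr1-1 and 1159.7 units in Col-0 at 30 min, with at most 455 units at 1 h. AT1G69840 at 1 h reads up to 993 units, above its 30 min arrays of 504 units in etr1-1 and 493 units in Col-0.

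How many members showed each shape depended on which arrays at 1 h were used. In DV001, 2 of the 93 members were higher 1 h after water than 30 min after GA4 in both genotypes. In DV002, which the rule did not use, 33 of the 93 were, and after GA4 at 1 h 36 were. These counts from DV002 are set against the 30 min arrays of DV001, and the members' median at 1 h was higher in DV002. A difference between DV002 and DV001 and a later peak cannot be told apart in them. The share over all probe sets was not counted.

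The arrays of DV002 gave values at 1 h that had no part in the choice of members. There the median difference from the 0 h array, which lies in DV001, was 1.56 after GA4 and 1.51 after water in etr1-1, and 1.55 after GA4 and 1.51 after water in Col-0. As the mean of the genotypes, 92 of the 93 members were 0.5 or more above 0 h after GA4 in DV002, where 6.70% of all probe sets were, and 90 of 93 after water, where 6.23% of all probe sets were. In DV001 after GA4, which the rule did not use either, 88 of 93 were, with 3.31% of all probe sets. These arrays share their replicate number with the water arrays that chose the members. The same 0 h arrays enter each of these differences and also the choice of members, so a low 0 h value raises them all. The 76 spray-induced probe sets that did not reach the 1 h threshold had a median of 0.34 after water in DV001 as the mean of the genotypes, and of 0.75 in DV002. In DV002, 62 of those 76 were also 0.5 or more above 0 h after water, so that the division at 1 h between the members and the 76 others was less sharp there.

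The level at 1 h differed between arrays in a way that neither genotype nor spray followed. The median difference from 0 h of the 93 members was 1.37 and 1.74 on replicates 1 and 2 of DV002 and 0.88 in DV001 in etr1-1 after GA4, and 1.22, 1.76 and 0.73 in etr1-1 after water. In Col-0 it was 1.30, 1.79 and 0.99 after GA4, and 1.45, 1.68 and 0.89 after water. In each of the 4 groups, the array of DV001 gave the lowest median and replicate 2 of DV002 the highest.

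**Figure D3:**
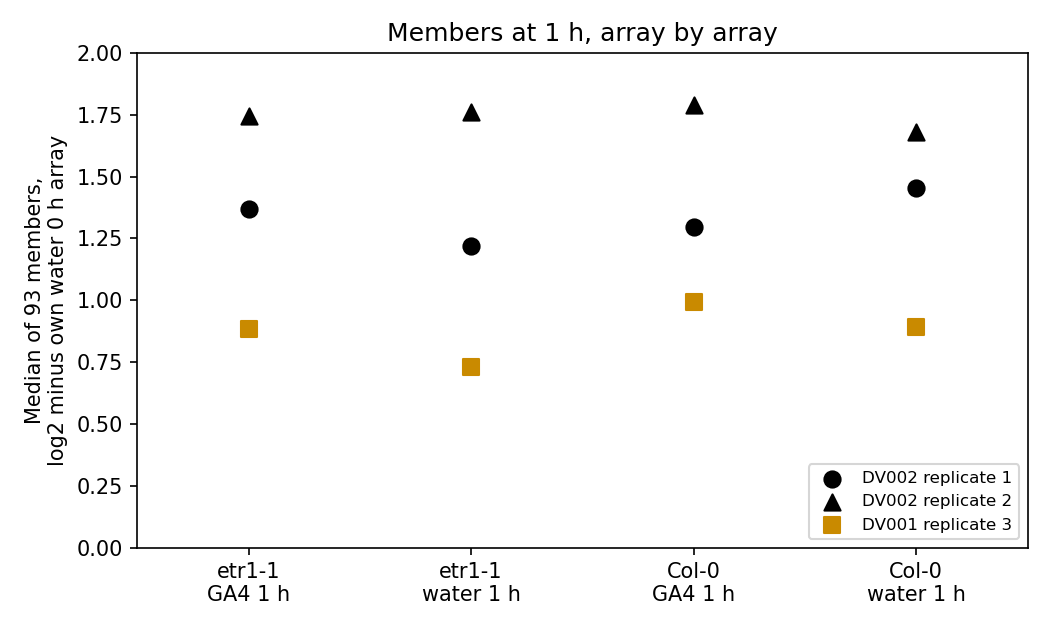
Median over the 93 members of log2(intensity + 16) minus the water 0 h array of the same genotype, for each of the 12 arrays at 1 h, by genotype and spray. Circles and triangles are replicates 1 and 2 of DV002 and squares are DV001. The squares lie between 0.73 and 0.99, the circles between 1.22 and 1.45 and the triangles between 1.68 and 1.79, in all 4 groups.

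This difference was tested after the pattern had been seen. Within DV002 a limma fit with a term for each group compared replicate 2 with replicate 1 over 4 pairs of arrays. Of the 93 members, 34 were higher in replicate 2 and 0 lower at an adjusted p under 0.05, with 4 members not tested, where 1.45% of all probe sets tested were higher and 1.04% lower. At an unadjusted p under 0.05, 60 were higher and 1 lower, with 7.22% of all probe sets higher. Leaving out either replicate 2 of etr1-1 after GA4 or replicate 2 of Col-0 after GA4 left 22 higher. Of the 15922 probe sets tested, 152 and 96 were higher in these fits, against 231 with all arrays. In 58 of the 93 members replicate 2 was above replicate 1 in all 4 pairs, as in 10.9% of all probe sets, and in 1 member, AT1G72900, it was below in all 4, as in 10.6%.

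The calcium-binding gene AT4G27280 was higher in replicate 2 by 0.97 on the log2 scale (SE 0.12, limma adjusted p = 0.00174). AT2G27080 was higher by 0.87 (SE 0.10) and AT4G29780 by 0.82 (SE 0.10), each with a limma adjusted p of 0.00154. Both had been named for their 30 min level. AT3G04640 was higher by 0.72 (SE 0.13, limma adjusted p = 0.0139). For AT3G04640 the call was lost with no filter and when any 1 of the 4 arrays after GA4 was left out, with limma adjusted p-values of up to 0.0809, whereas the other 3 genes passed in all 13 alternatives.

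PUB23, a U-box ubiquitin ligase that dampens immune signalling, was higher by 0.54 (SE 0.09, limma adjusted p = 0.0101). Its DV002 pairs were 134 and 208.5 units after GA4 and 116 and 187 units after water in etr1-1, and 101.5 and 153 units after GA4 and 88.6 and 125 units after water in Col-0. In DV001 it read 35.1, 178.5, 60.8 and 49.1 units in etr1-1 and 30.1, 160.5, 73.3 and 55.6 units in Col-0, and 53.6 units in etr1-1 and 64.6 units in Col-0 after water at 1 h. All arrays of DV002 were above all DV001 arrays at 1 h.

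EXLA3 was higher by 0.60 (SE 0.10, limma adjusted p = 0.00971), but not without replicate 2 of Col-0 after GA4 (limma adjusted p = 0.0504) or with no filter (limma adjusted p = 0.073). Its pairs were 33.2 and 55.9 units after GA4 and 32.0 and 61.4 units after water in etr1-1, and 29.7 and 55.7 units after GA4 and 31.9 and 51.5 units after water in Col-0. The DV001 series was 8.3, 54.9, 28.9 and 3.6 units in etr1-1 and 11, 49.9, 23.3 and 9.0 units in Col-0, with 17.7 units in etr1-1 and 23.5 units in Col-0 after water at 1 h. It was dim throughout, and its replicate 2 arrays were close to its 30 min arrays.

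AT5G10695 was higher by 0.76 (SE 0.14, limma adjusted p = 0.0144), a call lost with no filter and without any 1 array of DV002 other than the 2 of etr1-1 after GA4, with limma adjusted p-values of up to 0.0689 among these arrays. The pairs were 229.6 and 262.5 units after GA4 and 119.6 and 286.5 units after water in etr1-1, and 128.5 and 265 units after GA4 and 145 and 256 units after water in Col-0. Its DV001 series was 48.7, 134, 99.9 and 42.9 units in etr1-1 and 23.7, 136, 99.9 and 46.2 units in Col-0, and water at 1 h gave 97.5 units in etr1-1 and 88.1 units in Col-0. Replicate 2 of DV002 at 1 h was above the 30 min array in both genotypes.

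AT4G34150, CSLC04 and SRC2, described with their values below, were higher by 0.45, 0.43 and 0.46, with limma adjusted p-values of 0.0279, 0.0351 and 0.0361. With no filter, and with no variance trend, none of the 3 passed. CSLC04 and SRC2 lost the call whichever of the 8 arrays was left out, with limma adjusted p-values of up to 0.139 and 0.134. AT4G34150 kept it when an array of Col-0 after water was left out and lost it without any other array, with values of up to 0.10. The member with the smallest p was the unnamed probe set 266246_at, singled out after its values were seen, which read 99.0 and 264 units after GA4 and 110.4 and 234 units after water in etr1-1, and 81.8 and 245 units after GA4 and 94.5 and 224 units after water in Col-0. It was higher by 1.20 (SE 0.10, limma adjusted p = 2.3e-04) and passed in all 13 alternatives. By contrast AT1G69840, which was high on all arrays at 1 h, had a difference of 0.08 (SE 0.10, limma adjusted p = 0.778), and AT5G28630 of -0.10 (SE 0.13, limma adjusted p = 0.778).

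Among the arrays after GA4 at 1 h, DV002 was also compared with DV001, again after the pattern had been seen. Of the 93 members 10 were higher in DV002 and 0 lower at a limma adjusted p under 0.05, with 0.678% of all probe sets tested higher. At an unadjusted p under 0.05, 69 were higher and 1 lower, with 9.80% of all probe sets higher. The count at the adjusted threshold rested on single arrays. Without replicate 1 of Col-0 it was 47, with 378 of the 15922 probe sets tested higher. Without replicate 2 of Col-0 it was 1, with 27, and without replicate 1 or 2 of etr1-1 it was 0, with 9 and 16. The count over all probe sets thus moved with single arrays as well. Leaving out an array of DV001 leaves 1 array of that code, so no count is given. The 3 genes named next passed only with all 6 arrays or without replicate 1 of Col-0, and they did not pass with no filter.

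AT1G35350, of the EXS domain family that includes phosphate exporters, was higher in DV002 by 0.81 (SE 0.12, limma adjusted p = 0.0276). It read 278 and 313 units after GA4 and 263 and 379 units after water in etr1-1 in DV002, and 302 and 328 units after GA4 and 351 and 242 units after water in Col-0. In DV001 the series was 118, 261, 174 and 68.0 units in etr1-1 and 77.5, 185, 162 and 66.5 units in Col-0, and 208 units in etr1-1 and 191.5 units in Col-0 after water at 1 h. The DV002 arrays were above the DV001 arrays at 1 h without overlap.

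AT3G57450 was higher in DV002 by 0.88 (SE 0.14, limma adjusted p = 0.0394). The DV002 pairs were 632 and 664 units after GA4 and 450.1 and 903 units after water in etr1-1, and 510.3 and 704 units after GA4 and 549 and 718.5 units after water in Col-0. The series from DV001 was 166, 751, 372 and 178 units in etr1-1 and 142.5, 673, 295 and 260.1 units in Col-0, and 323 units in etr1-1 and 371 units in Col-0 after water at 1 h. The arrays at 1 h did not overlap between DV002 and DV001.

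AT1G32920 was higher by 0.83 (SE 0.14, limma adjusted p = 0.0421). It read 528.5 and 617 units after GA4 and 418 and 670.3 units after water in etr1-1 in DV002, and 459.8 and 578.5 units after GA4 and 426 and 522 units after water in Col-0. In DV001 it read 206.5, 689, 282 and 190.5 units in etr1-1 and 178, 667, 314 and 299 units in Col-0, with 347 units in etr1-1 and 327 units in Col-0 after water at 1 h. Again there was no overlap at 1 h.

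Tissue markers and control probe sets were set beside these differences. The summed intensity of the leaf markers RCA, LHCB4.1, LHCB4.2 and LHCB4.3 lay between 6622 and 8364 units in DV002 and between 7088 and 9860 in DV001. That of the root markers PYK10, EXPA7 and EXPA18 lay between 2385 and 3036 units in DV002 and between 2431 and 2988 in DV001. None of these 7 markers was near 0 on any array, the lowest value being 34.4 units for EXPA18. EXPA7, at 34.5 to 75.2 units, and EXPA18, at 34.4 to 64.7 units, were dim, as array medians were 45.3 to 49.7 units. PYK10, at 2260.5 to 2933.7 units, made up most of the root sum. The log2 ratio of the 3' over the 5' control probe set for actin, a sign of RNA quality, lay between 0.76 and 1.55 in DV002 and between 0.64 and 0.93 in DV001. The highest actin ratio, 1.55, was on replicate 1 of Col-0 after GA4 in DV002, followed by 1.46 on replicate 2 of etr1-1 after water. That Col-0 array also had the highest ratio for 1 GAPDH control pair, at 1.16, but not for the other, at 0.31. It is the array without which 47 members were higher in DV002 than in DV001. The part of RNA quality in the differences between arrays was not tested.

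GA4 and water at 1 h were compared within DV002 to ask whether the members answer to gibberellin beyond the spray. No member passed, as 0% of all probe sets did in limma, whether the genotypes were averaged, taken singly or compared with each other. At an unadjusted p under 0.05, 0 members passed with the genotypes averaged, 3 in etr1-1, 0 in Col-0 and 1 for the difference of the GA4 responses between them. Over all probe sets tested 1.74%, 2.12%, 1.08% and 1.38% did in the same order. The replicate numbers pair these arrays, and with the replicate number as a block 3 members had such a p with the genotypes averaged, all higher after GA4, with 2.99% of all probe sets, and 5 in etr1-1, with 3.61%. Over all 12 arrays at 1 h with that block, 11 members were higher and 1 lower after GA4 at an unadjusted p under 0.05 with the genotypes averaged, with 5.02% of all probe sets, and 7 were higher and 1 lower in etr1-1, with 4.82%. The 12 arrays include the water arrays that chose the members, and no member passed at an adjusted p under 0.05 with the block either. With the genotypes averaged, the 95% interval of the difference between GA4 and water lay within 1 log2 unit of 0 for 88 members. Taken singly, it did so for 77 members in etr1-1 and for 75 in Col-0. For the difference of the GA4 responses it did so for 48 members. A response differing by 2-fold between the genotypes was thus within the interval for many. These intervals and those that follow are from the fit without the block, so they include the spread between replicate numbers.

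With the genotypes averaged, the named members with the smallest unadjusted p did not pass. AT1G33600, a leucine-rich repeat protein, had a difference of -0.34 with a 95% interval of -0.80 to 0.13. AT1G05575 had 0.18 (-0.07 to 0.44) and AT1G25400 had 0.23 (-0.13 to 0.59). All 3 had a limma adjusted p of 1.00. In etr1-1 the smallest p among named members belonged to AT4G37240 (0.26, interval -0.11 to 0.62), AT1G05575 (0.21, -0.15 to 0.57) and AT1G66180 (0.23, -0.25 to 0.71). In Col-0 they belonged to AT3G59350 (-0.31, -0.77 to 0.14), AT1G33600 (-0.38, -1.04 to 0.27) and AT1G25400 (0.23, -0.27 to 0.74). For the difference of the responses between the genotypes they were AT3G59350 (0.47, -0.17 to 1.12), AT2G39650 (-0.34, -1.01 to 0.34) and AT1G19380 (0.29, -0.33 to 0.92). None of these intervals excluded 0.

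Between 1 h and 3 h after GA4 most of the members fell. This was tested in limma over the 10 arrays of DV001 with terms for genotype and condition. The rule used neither the 1 h nor the 3 h arrays after GA4, but the spread in this fit also comes from the arrays it did use, and each genotype gives 1 array per time. The GA4 arrays carry replicate number 3 at 1 h and 1 at 3 h, so time and replicate number cannot be told apart in this change. The water arrays at 1 h that chose the members share replicate number 3 with the GA4 arrays at 1 h. Arrays of the same number deviated alike, so a high start at 1 h, and with it a fall, is partly built into the choice. Of the 93 members 64 fell and 0 rose, with 4 not tested, where 2.43% of all probe sets tested fell and 1.40% rose. At an unadjusted p under 0.05, 79 were lower and 0 higher, with 8.69% of all probe sets lower. Without the array of etr1-1 after GA4 at 1 h, or without that of Col-0, fewer members and fewer of all probe sets passed. Each of these fits leaves 1 array at that time, so no count is given. The median change of the 89 members tested was -0.83 and -0.78 in these fits, and -0.85 with all arrays. The median change of the 93 members was -0.76 in etr1-1 and -0.77 in Col-0. In 89 of the 93 the 3 h array was below the 1 h array in both genotypes, as in 28.8% of all probe sets, and in 22 the change was -1 or beyond in both, as in 0.163%. Of the 76 spray-induced probe sets under the 1 h threshold 68 were tested and 13 of these fell, and the median change of the 76 was -0.34. The 76 were set apart by lower values on those water arrays at 1 h, so their contrast with the members is also partly fixed by the choice.

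**Figure D4:**
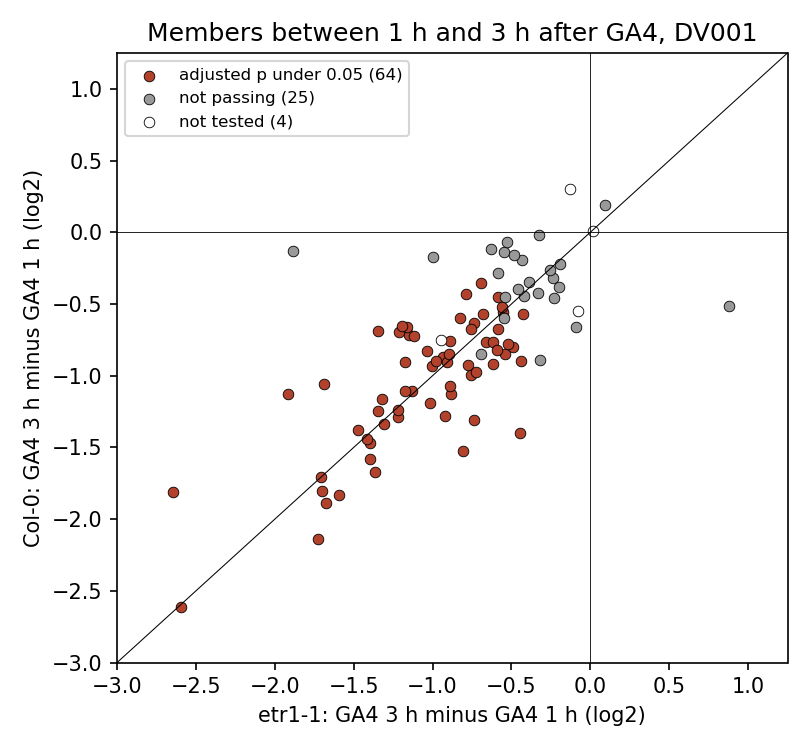
Change between GA4 1 h and GA4 3 h in DV001 on the log2(intensity + 16) scale, in etr1-1 (horizontal axis) and in Col-0 (vertical axis), each point 1 of the 93 members. Red points passed limma at an adjusted p under 0.05 (64), grey points did not (25) and white points were not tested (4); the diagonal marks equal change. In 89 of the 93 both changes are below 0, and the points lie along the diagonal with medians of -0.76 in etr1-1 and -0.77 in Col-0.

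AT1G69840, of the SPFH family, fell by 1.71 (SE 0.12, limma adjusted p = 7.8e-05), with 555 and 692 units at 1 h in etr1-1 and Col-0 and 173 and 183 units at 3 h. AT2G24600, the ankyrin repeat gene, fell by 1.93 (SE 0.19, limma adjusted p = 2.6e-04). AT5G19240 fell by 1.49 (SE 0.12, limma adjusted p = 9.9e-05). All 3 had been among the highest 1 h after water, and at 3 h they were back near their 0 h arrays.

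AT4G34150 encodes a protein with a C2 domain, a module that binds membrane lipids, often in a calcium-dependent way. It fell by 1.43 (SE 0.11, limma adjusted p = 9.7e-05). The DV001 series was 264, 825, 571.5 and 204 units in etr1-1 and 222, 748, 526 and 183 units in Col-0, with 423 units in etr1-1 and 495 units in Col-0 after water at 1 h. In DV002 it read 855 and 1158 units after GA4 and 717 and 1031 units after water in etr1-1, and 595 and 949.7 units after GA4 and 693.5 and 802 units after water in Col-0. Its 3 h arrays were below the 0 h arrays in both genotypes.

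SRC2, another C2-domain protein, fell by 0.87 (SE 0.10, limma adjusted p = 9.3e-04). Over time in DV001 it read 382, 929, 648 and 378 units in etr1-1 and 416, 957, 844.5 and 416 units in Col-0, and water at 1 h gave 619 units in etr1-1 and 763 units in Col-0. The DV002 pairs were 896 and 1120.2 units after GA4 and 842 and 1042 units after water in etr1-1, and 691 and 1223 units after GA4 and 792 and 1047 units after water in Col-0. At 3 h it stood within a few units of 0 h in both genotypes.

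CSLC04, the xyloglucan backbone synthase, fell by 0.87 (SE 0.09, limma adjusted p = 4.0e-04). In DV001 it read 274, 573.5, 453 and 236 units in etr1-1 and 277, 635, 486 and 263 units in Col-0, with 405 units in etr1-1 and 427 units in Col-0 after water at 1 h. Its DV002 values were 478 and 737 units after GA4 and 486 and 679 units after water in etr1-1, and 574 and 777 units after GA4 and 561 and 646 units after water in Col-0. The 3 h arrays were slightly below the 0 h arrays.

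RALFL22, the RALF peptide gene, fell by 0.85 (SE 0.10, limma adjusted p = 0.00108). It had a DV001 series of 196, 417, 301 and 176 units in etr1-1 and 198, 438, 369 and 180.2 units in Col-0, and 278 units in etr1-1 and 298.5 units in Col-0 after water at 1 h. The pairs from DV002 were 538 and 545 units after GA4 and 379 and 552 units after water in etr1-1, and 394 and 593 units after GA4 and 442.5 and 580.0 units after water in Col-0. As with CSLC04, its 3 h arrays were slightly below those at 0 h.

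AT1G66180, an aspartyl protease gene, fell by 0.90 (SE 0.09, limma adjusted p = 4.0e-04). Its values are given below with the comparison of the genotypes. AT1G35350 fell by 1.14 (SE 0.14, limma adjusted p = 0.00124), to 68.0 units in etr1-1 and 66.5 units in Col-0 at 3 h, below the 0 h arrays.

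AT1G65490 fell by 1.78 (SE 0.22, limma adjusted p = 0.00137). Its DV001 series was 269, 636.5, 391.5 and 112 units in etr1-1 and 101, 268, 344.5 and 81.3 units in Col-0, and 505 units in etr1-1 and 297 units in Col-0 after water at 1 h. On the DV002 arrays it read 304 and 371 units after GA4 and 209 and 601 units after water in etr1-1, and 251 and 267 units after GA4 and 222 and 390.4 units after water in Col-0. Its 3 h arrays lay below its 0 h arrays, and in etr1-1 by 1.16 on the log2 scale, the lowest 3 h value relative to 0 h among the 93 members.

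Of the genes named for their 30 min level, AT2G27080 fell by 1.52 (SE 0.22, limma adjusted p = 0.00296) and AT4G27280 by 1.02 (SE 0.15, limma adjusted p = 0.00387), the second of which did not pass without the array of etr1-1 after GA4 at 1 h (limma adjusted p = 0.0609). AT4G29780, AT3G04640, AT1G72900 and AT3G10930 had changes of -0.34, -0.17, -0.43 and -0.31 and did not pass (limma adjusted p = 0.232, 0.570, 0.135 and 0.450). In these 4 genes most of the difference between 30 min and 3 h was already gone at 1 h in DV001. PUB23 had a change of -0.28 and did not pass (limma adjusted p = 0.316). The unnamed probe sets 245757_at and 247925_at, singled out after their values were seen, fell by 2.60 (SE 0.24) and 2.23 (SE 0.36), with limma adjusted p-values of 2.0e-04 and 0.00540. Probe set 247925_at did not pass with no filter (limma adjusted p = 0.0601), without the etr1-1 array at 3 h (limma adjusted p = 0.0657) or without the Col-0 array after GA4 at 1 h (limma adjusted p = 0.0687).

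2 members lay below 0 h on the etr1-1 array after GA4 at 1 h in DV001, AT2G32030, a GNAT acetyltransferase gene, and 256356_s_at, both named after their values were seen. AT2G32030 read 1.7 units there, against 26.2 units on the matching Col-0 array and 29.2 units in etr1-1 after water. It is dim, with 71.0 units in etr1-1 and 92.1 units in Col-0 at 30 min.

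The genotypes were compared over all 18 arrays with the condition as a term, to ask whether the level of the members differs between etr1-1 and Col-0. Ethylene insensitivity and any other difference between these lines cannot be told apart here. The rule treats the genotypes alike and does not fix this difference. Of the 93 members 1 was higher and 2 were lower in etr1-1 at a limma adjusted p under 0.05, with 4 not tested, where 3.28% of all probe sets tested were higher, 3.34% lower and 6.61% either. With the array pairs as a replicate block 20 members passed, 22.5% of the 89 tested, with 14.4% of all probe sets. Of these, 12 were higher and 8 lower, with 7.45% and 6.91% of all probe sets. In DV001 alone 9 members passed, with 8.22% of all probe sets, and with the code DV001 or DV002 as a block 9 passed, with 11.5%. Of the 89 members tested 10.1% passed in each of these 2 fits, near the share of all probe sets. At an unadjusted p under 0.05 there were 10 members without a block, with 3208 of 15922 probe sets, a lower share. With the array pairs as a block there were 34, with 4483, and in DV001 alone 31, with 3667, both higher shares. With the code as a block there were 23, with 4062, a like share. The named genes that follow passed in the fit without a block.

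AT1G66180, the aspartyl protease gene, was lower in etr1-1 by 0.65 on the log2 scale (difference -0.65, SE 0.10, limma adjusted p = 4.5e-04). The DV001 series was 189.5, 466, 433 and 223 units in etr1-1 and 357, 831, 746 and 392 units in Col-0, with 316 units in etr1-1 and 638 units in Col-0 after water at 1 h. Within DV002 it gave 637 and 437.5 units after GA4 and 412 and 484.5 units after water in etr1-1, and 718 and 617 units after GA4 and 779 and 531 units after water in Col-0. The etr1-1 array was the lower in all 9 pairs with the same spray, time and replicate, as was so for 2.88% of all probe sets.

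AT1G33600, the leucine-rich repeat gene, was lower in etr1-1 (difference -0.74, SE 0.13, limma adjusted p = 0.00203). The series from DV001 was 108, 387, 193 and 119.5 units in etr1-1 and 192.5, 550.4, 395 and 362 units in Col-0, and water at 1 h gave 252.5 units in etr1-1 and 398 units in Col-0. The DV002 pairs were 295 and 211 units after GA4 and 242 and 391 units after water in etr1-1, and 487 and 275 units after GA4 and 569.9 and 409 units after water in Col-0. It too was lower in etr1-1 in all 9 pairs, and the difference was widest at 3 h, where etr1-1 read 119.5 units, against 362 units in Col-0.

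The unnamed probe set 255177_at was higher in etr1-1 (difference 1.02, SE 0.25, limma adjusted p = 0.0186). The DV001 series was 1.1, 105.5, 51.5 and 2.3 units in etr1-1 and 0.8, 32.4, 3.9 and 2.2 units in Col-0, with 22.0 units in etr1-1 and 4.9 units in Col-0 after water at 1 h. DV002 gave it 71.6 and 80.9 units after GA4 and 44.4 and 129 units after water in etr1-1, and 12.4 and 20.3 units after GA4 and 27.0 and 29.2 units after water in Col-0. It was higher in etr1-1 in all 9 pairs, as was so for 3.06% of all probe sets, but nearly at 0 in both genotypes at 0 h and 3 h. It did not pass in DV001 alone (limma adjusted p = 0.0534) or without replicate 1 of the groups at 1 h (limma adjusted p = 0.104).

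**Figure D5:**
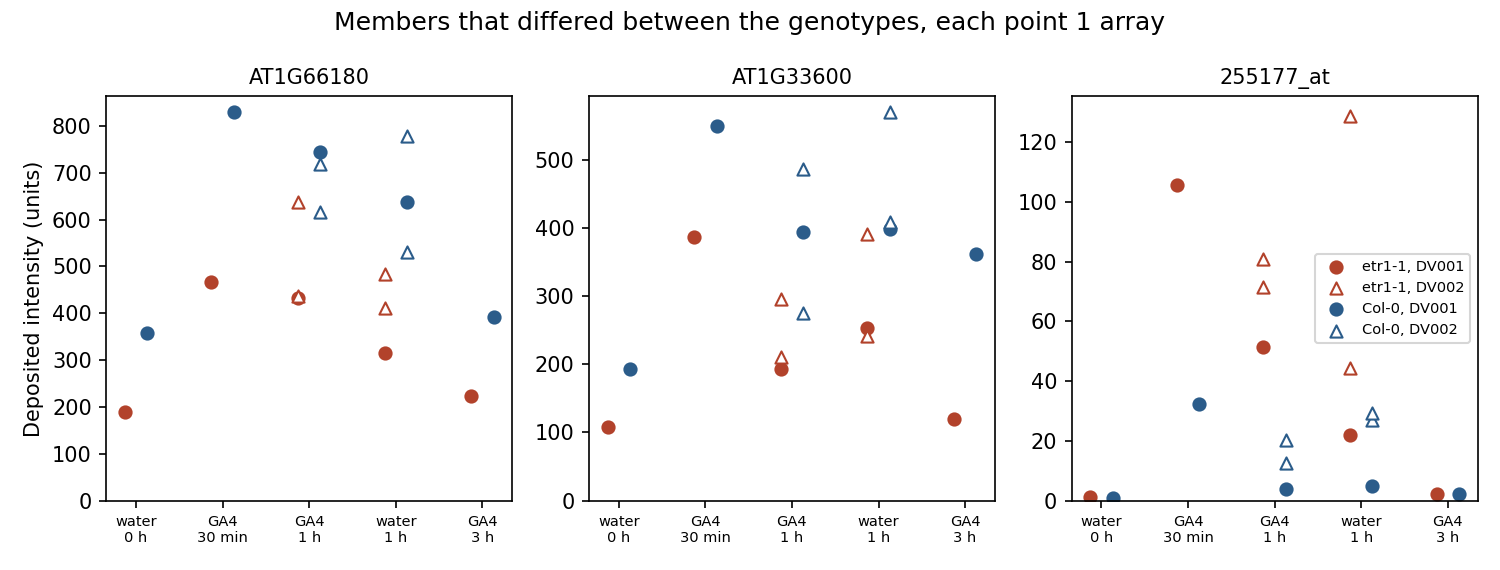
Deposited intensity (units) of the members that differed between the genotypes over the 18 arrays, each point 1 array, by condition, with etr1-1 (red) left of Col-0 (blue), DV001 as filled circles and DV002 as open triangles. AT1G66180 and AT1G33600 are lower and 255177_at is higher in etr1-1 in all 9 pairs of arrays with the same spray, time and replicate.

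Within DV002 at 1 h, no member passed between the genotypes in limma. Over all probe sets tested 0.113% passed after GA4 and 0.195% after water. At an unadjusted p under 0.05 without a block there were 5 of the 89 members tested after GA4, with 7.40% of all probe sets. After water there were 4, with 6.36%, so without a block the members' shares were below those of all probe sets. With the replicate number as a block there were 17 after GA4, with 1740 of 15922 probe sets, and 14 after water, with 1563. In that fit the members' shares were above those of all probe sets. At an adjusted p under 0.05 with the block, 1 member passed after GA4, with 0.515% of all probe sets. After water 0 did, with 0.465%. The values that follow are from the fit without a block. The named members with the smallest unadjusted p after GA4 were AT1G19020 (difference 0.66, 95% interval 0.19 to 1.13, limma adjusted p = 0.484), AT1G05575 (0.38, 0.02 to 0.75) and AT1G19380 (0.44, 0.00 to 0.88). After water they were AT1G66180 (-0.51, -0.99 to -0.03, limma adjusted p = 0.761), AT1G33600 (-0.62, -1.28 to 0.03) and AT1G05575 (0.33, -0.04 to 0.69).

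Gene lists of the pathways known for early responses to touch and stress were set beside the members, with few genes measured under a name. The lists were matched only to probe sets that name 1 gene, so the 46 unlisted members and the 4 naming several were not searched. A list in which no gene met the threshold may therefore still have genes among the members. The counts that follow cover genes measured under a name. Of 7 WRKY transcription factors, 3 AP2/ERF factors and 4 jasmonate genes, none met the 30 min threshold in both genotypes. Of 8 calmodulin-like genes CML38 and CML23 met it, and of the zinc finger repressors the 1 measured gene, STZ, did. Of 13 ubiquitin ligases of the PUB and ATL families PUB23 alone met it and is a member. None of 6 gibberellin genes, 3 ethylene genes and 13 early auxin genes met it.

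Between 1 h and 3 h after GA4, STZ fell and COR27, of 2 clock and cold genes, rose, and no other gene of these lists passed. The change of STZ was -0.76 (SE 0.11) and that of COR27 was 1.69 (SE 0.16). Over the 18 arrays, CML43 was higher in etr1-1 by 0.30 (SE 0.09) and CML30 lower, with a difference of -0.33 (SE 0.07). In the auxin list GH3.17 was higher by 0.59 (SE 0.08) and ARL lower, with a difference of -1.94 (SE 0.11). GLR2.7, a glutamate receptor-like gene in the list of 23 calcium-signalling genes, was lower in etr1-1, with a difference of -0.28 (SE 0.08). All of these passed at a limma adjusted p under 0.05. No leaf or root marker passed in either comparison.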

How the data were processed

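RNA from whole plants was hybridised to 18 ATH1 arrays. The authors deposited 1 intensity per probe set and array on a linear scale. The way they were computed was not given in the sources used here. Each array's mean intensity in the deposited table after trimming 2% at each end was between 100.007 and 100.008, so arrays had been scaled alike. No further scaling was applied. The number of arrays limits the precision.

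Values were used as log2(intensity + 16), which understates the change of dim probe sets. Of 22810 probe sets 64 controls were left out, and those under the 30 th percentile of mean log2 were not tested, which left 15922, among them 89 of the 93 members. Tests used limma 3.58.1 in R 4.3.3 (lmFit, eBayes with an intensity trend, Benjamini-Hochberg over all 15922, threshold 0.05). Fits at 1 h used the 8 arrays of DV002 with 1 term per group. Tests were tried on simulated data. Names come from the platform annotation, updated to RefSeq of TAIR10.1 (13436 of 13513 named probe sets matched).

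Genes were named by rule: the 6 named members highest at 30 min, the 6 highest 1 h after water, up to 10 per comparison that passed, members of gene lists and those next to a threshold, with the 3 smallest p-values where none passed. The members, gene lists and tests were chosen with earlier results of these data known. Replicate numbers, from the labels, pair the arrays at 1 h: deviations from the group means of same-numbered arrays correlated at 0.13 to 0.70 in 18 pairs, and all 12 arrays correlated best with their own number. Alternatives changed the offset to 1, the normalization to quantile, the filter to none, the variance trend to none or the threshold to 0.10, added blocks, or left out arrays.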

Additional observations from a re-analysis of the deposited data

How the results depend on the processing

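Of the settings tried, none turned the direction of a named gene that passed its test. For the genotypes over 18 arrays, 3 members passed, with 6.61% of all probe sets. At an adjusted p of 0.10 there were 6, with 10.2%. With the replicate block of array pairs 20 passed, with 14.4%. In DV001 alone 9 did, with 8.22%, and with DV001 or DV002 as a block 9, with 11.5%. When a replicate number at 1 h was left out 3 to 5 passed, with 4.40% to 6.17%. Between the genotypes after GA4 in DV002, 0 members passed, and 1 with the replicate block, with 0.515% of all probe sets. With 12 arrays and the replicate block 1 passed, with 1.87% of all probe sets. After water 0 passed, and 2 with 12 arrays and the replicate block, with 1.41% of all probe sets. GA4 against water gave 0 members in all settings run, the replicate block included. The count of 64 that fell between 1 h and 3 h was 38 to 56 when an array was left out. For DV002 against DV001 after GA4, 10 passed, and 36 at an adjusted p of 0.10, with 4.67% of all probe sets. With no filter 0 passed, with 0.0088% of all probe sets. When an array of DV002 was left out 0 to 47 passed, with 9 to 378 of the 15922 probe sets tested higher. For replicate 2 against replicate 1, 34 were higher, with 231 of the 15922 probe sets tested. With no filter 15 were, with 49 of 22746. When an array was left out 22 to 26 were, with 96 to 184 of 15922. These last comparisons and their alternatives were chosen after seeing the data.

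The median of the members 1 h after water in DV002 was 1.55, with an offset of 1 it was 1.79, with quantile normalization 1.52 and with a 1 h threshold of 1 it was 2.25. The median change between 1 h and 3 h after GA4 was -0.82, with an offset of 1 it was -0.92, with quantile normalization -0.81, with a 1 h threshold of 1 it was -1.23 and with the 1 h arrays of DV002 -1.40. The median at 3 h against 0 h, 0.23, moved by less than the spread between the genotypes.

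The 0 h, 30 min and 3 h groups had 1 array each. Probe sets with low intensity, such as 255177_at and EXLA3, are the least certain. No promoter or protein sequence was used here, so the planned search for promoter motifs was not run. The cause of the changes in counts was not tested.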
